A study of Homo sapiens with 10 samples.

Results

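The telomerase gene loci were taken as TERT and TERC, each with its gene body and 10 kb on either side, in GENCODE gene models on GRCh38. They held 417 of the 12921589 nucleosome positions in the deposited list, 320 at TERT and 97 at TERC. A position is an interval of 140 bp in the list, its midpoint stands for the nucleosome centre, and its score is the authors' signal at that place. The data came from undifferentiated human induced pluripotent stem cells (hiPSCs) (PB010.5 cells, with a FUCCI cell cycle reporter in the EEF2 locus). Chromatin was digested for 5 min with micrococcal nuclease (MNase), an enzyme that cuts linker DNA between nucleosomes, at 0.5 U, at 1 U, at 3 U, at 6 U and at 10 U, and yeast mononucleosomal DNA was added to each digest afterwards. Each amount gave 1 library, which was read on one instrument at 150 bp and on another at 50 bp, so the 10 samples are 5 digests. The list is 1 pooled list, so no value per MNase amount exists here, no replicate error can be given and no difference was tested. Which runs were pooled is not stated, so the depth behind a score is unknown, and the list holds no transcript levels against which the cell type could be checked.

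Telomerase adds telomeric repeats to chromosome ends. TERT is its reverse transcriptase, and TERC is the RNA that carries the template copied into the telomere. Pluripotent cells express both, whereas most differentiated somatic cells silence TERT. Nucleosomes at a promoter can cover or leave free the sequences that transcription factors bind. MNase favours AT-rich DNA, so position counts, scores and spacing across the start sites were also compared at matched GC content. Values for a whole chromosome or for all gene starts, and those of other telomere maintenance genes, were not matched.

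TERT (ENSG00000164362.21) lies on the minus strand at chr5:1253147-1295068, near the short-arm end of chromosome 5, and its canonical transcript has 16 exons. Its promoter is very rich in GC, and known motifs for its regulators lie in it. The E-box CACGTG is the recognition sequence of the MYC family, and GGGCGG is the GC box bound by SP1. Their matches in the reference, within 250 bp before and 50 bp after the start, are shown because they can be set beside the positions described next. Capitals mark the motif (CCGCCC is the GC box on the other strand), each sequence is read 5′ to 3′ on the strand of TERT, and distances count the start base as 0.

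TERT E-box, chr5:1295214-1295243: gaccgcgcttccCACGTGgcggagggactg
TERT GC box under the strongest position, chr5:1295295-1295324: agacccccgggtCCGCCCggagcagctgcg
TERT GC box nearer the start, chr5:1295137-1295166: tccgcgcggaccCCGCCCcgtcccgacccc
TERT GC box at the start, chr5:1295056-1295085: ctttccgcggccCCGCCCtctcctcgcggc

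The strongest position of the whole TERT locus stood at its promoter. It was centred at -234 bp from the start, at chr5:1295232-1295371, and its score was 59.2. The score advances in steps of 1.23, so this is 48 steps. Only 109 of the 807808 positions on chromosome 5 scored as high or higher, which is 0.0135% of them. The sequence around its midpoint was 78.9% GC.

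On both sides of it the scores were low. The next position towards the start was centred at -114 bp with a score of 9.87, above 20.3% of the scores on chromosome 5. The next one further upstream was at -404 bp with a score of 7.40, above 4.12%. Beyond it, midpoints at -504, -624 and -904 bp had scores of 25.9, 17.3 and 19.7. High and low scores thus alternated from -114 to -504 bp, which the plot of the intervals around both start sites shows. The intervals at -114 and -234 bp overlapped, and so did those at -404 and -504 bp. The positions of such a pair need not be separate nucleosomes.

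Downstream of the TERT start the first midpoint was at +106 bp, in exon 1, with a score of 19.7. The midpoints at +336, +456, +636 and +756 bp had scores of 16.0, 14.8, 12.3 and 9.87. The score thus declined at each step from exon 1 into exon 2, before 27.1 at +906 bp. No midpoint lay in the 79 bp of the 5′ UTR, although the interval at +106 bp reached into it.

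The midpoints on either side of the TERT start were 220 bp apart. This is also the median over the protein-coding genes of chromosome 5, and the SD was 213 bp over the 859 of them with a distance under 10 kb. Among the 23 of these with GC content within 3 percentage points of TERT over 1000 bp on each side of the start (73.4% GC for TERT), the distance ranged from 115 to 930 bp with a median of 210 bp, and 12 were shorter. The spacing across the TERT start was thus within the spread of its GC-matched genes. With only the positions of at least the median score of the whole list, 14.8, the TERT distance became 340 bp, since the position at -114 bp scored 9.87.

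The height of the strongest position was not within that spread. The highest score within 500 bp of the start was 59.2 at TERT, and in the 23 matched genes it ranged from 14.8 to 48.1 with a median of 28.4. The 1-kb window centred on the TERT start, at 76.4% GC, held 6 midpoints, and the 22 windows of chromosome 5 within 1 percentage point of GC held 0 to 6 with a median of 5. The highest score in those windows reached 44.4 at most, with a median of 27.1. The score of the first upstream position, 9.87, was at the other end, since 3 of the 23 genes had a lower one and their median was 17.3.

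Set against these positions, the E-box at -163 to -158 bp lay inside the weak interval centred at -114 bp, and its outer base was next to the edge of the interval with the score of 59.2. The GC box at -244 to -239 bp was 7 bp from the midpoint of that strongest position. The GC box at -86 to -81 bp lay under the weak interval. The one that ends on the start base was under no interval, and the nearest interval edge was 37 bp away. CACGTG occurred in 5.67% of the 62663 annotated gene starts in a window of the same 300 bp, and GGGCGG in 30.1%, counting both strands. Of the 320 TERT midpoints, 310 lay on a 10-bp grid and every interval was 140 bp long. Placements within 10 bp of an edge or midpoint are thus not resolved. These matches describe the sequence and do not show that a factor was bound.

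**Figure D1:**
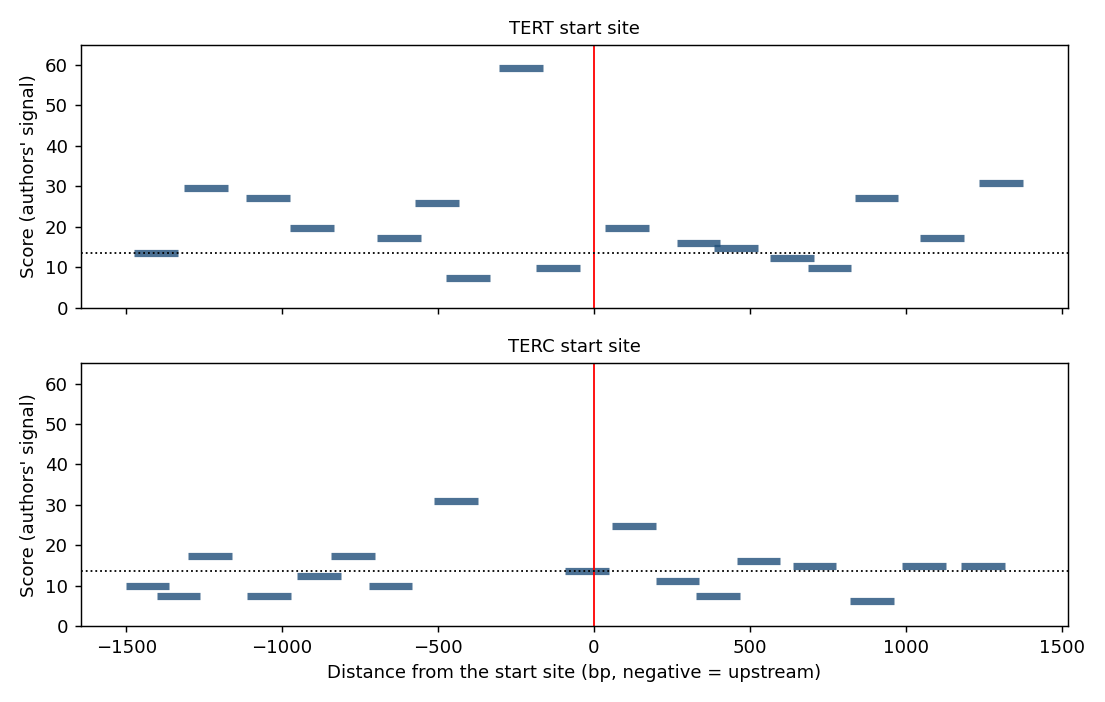
Each bar is the 140-bp interval of 1 position, plotted by its distance from the start site (x, bp, negative is upstream) and its score (y, the authors' signal), for TERT above and TERC below. The red line is the start and the dotted line the median score of the chromosome, 13.6. At TERT the interval at -234 bp stands at 59.2 between neighbours at 9.87 and 7.40, and at TERC no interval is centred between -442 and -22 bp.

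TERC (ENSG00000270141.3) is annotated in GENCODE release 44 as a single exon of 541 bp on the minus strand of chromosome 3, at chr3:169764520-169765060. A CCAAT box, bound by NF-Y, and a TATA-like element precede it. Its start window held 1 GC box, 1 CCAAT box and 1 match to TATAAA, counting both strands, and no E-box. Of all gene starts, 36.5% held CCAAT. The share with TATAAA was 16.7%. The 3 matches and the template of the RNA are shown on the strand of TERC, because the positions around the start divide them. Capitals mark the motif or, in the last line, the 11 bases of the template.

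TERC GC box, chr3:169765147-169765176: cccccaaccagcCCGCCCgagagagtgact
TERC CCAAT box, chr3:169765102-169765130: gagtcagcttggCCAATccgtgcggtcgg
TERC TATA-like match, chr3:169765073-169765102: gcggccgctcccTTTATAagccgactcgcc
TERC template, chr3:169764995-169765024: attttttgtCTAACCCTAACtgagaagggc

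A position sat on the TERC start itself. Its midpoint was at -22 bp, its interval reached into the first 49 bp of the transcribed sequence, and its score was 13.6, the median of chromosome 3. Upstream of it followed 420 bp without a midpoint, up to a position at -442 bp with a score of 30.8, which was above 96.2% of the scores on the chromosome and the highest within 500 bp of the start. The midpoints beyond that, at -652, -772 and -882 bp, had scores of 9.87, 17.3 and 12.3. No base of the 420-bp stretch was in a tandem repeat, and its GC content was 49.9%.

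Inside the annotated TERC exon there were 4 midpoints. The first, at +128 bp, had the highest score of them, 24.7, above 88.0% of the scores on chromosome 3. The others, at +268, +398 and +528 bp, had scores of 11.1, 7.40 and 16.0. So the strongest signal within the annotated gene was at its 5′ end, next to the template, and the weakest at +398 bp. The template at +45 to +55 bp lay between the intervals centred at -22 and +128 bp, which left 10 bases uncovered. Of its 11 bases, 4 were inside the upstream interval and none in the downstream one. Since 91 of the 97 TERC midpoints lay on a 10-bp grid, these counts of bases are not resolved below that step.

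The midpoints on either side of the TERC start were 150 bp apart. The 288 protein-coding genes of chromosome 3 of matched GC content had a median of 242.5 bp, and 34 of them were shorter. TERC is not protein-coding, so these genes match its GC content but not its class. Their nearest upstream midpoint was at a median of 129.5 bp, and 28 of the 288 had a nearer one than TERC. With only the positions of at least that same median score, the TERC distance became 570 bp, because the position on the start scored 13.6. The spacing across each of the starts thus rests on 1 upstream position that scored under 14.8.

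The 1-kb window centred on the TERC start held 5 midpoints, and the 1026 windows of matched GC held 0 to 9 with a median of 6. Its highest score, 30.8, was near the matched median of 33.3. Of the motifs, the CCAAT box at -58 to -54 bp and the TATA-like match at -30 to -25 bp lay under the interval on the start. The GC box at -104 to -99 bp was under none and lay 8 bp outside that interval, within the stretch that lacks midpoints. Those 8 bp are less than 1 step of the 10-bp grid.

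Across its whole length the TERT locus had 5.17 positions per kb against 4.46 for chromosome 5, and its GC content was 57.3% against 39.5%. The median score was 18.5 (quartiles 13.6 and 23.4), and that of the chromosome was 13.6 (quartiles 9.87 and 19.7). Scores in the locus ranged from 6.17 to 59.2. Of the 320 positions, 78 were at or above the 90th percentile of chromosome 5, where 11.4% of all positions were. The locus is richer in GC than the chromosome, and score rises with GC content on chromosome 5 (Spearman rho 0.517 over its 807808 positions). Within the locus rho was 0.253 over 320 positions. Neighbouring positions share reads and base composition, so both are descriptions.

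Neighbouring intervals overlapped, with midpoints under 140 bp apart, in 99 of the 319 pairs at TERT, or 31.0%, and in 25.3% of the pairs on chromosome 5. The median distance between neighbours was 170 bp at TERT and 180 bp on the chromosome.

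After GC matching, the TERT locus was close to its chromosome in the number of positions, and its mean score was lower than expected. Windows of 1 kb with the same GC content within 1 percentage point led to an expected 310.2 positions, and the observed 320 were 1.03 times that. With windows in stretches of 10 kb or more lacking positions left out, the expectation was 320.7 and the ratio 0.998. The same ratio over 2792 consecutive blocks of the length of the locus had an SD of 0.15 on the log2 scale, so the difference was well inside it. The mean score, 19.4, was 0.932 times the 20.8 expected from positions of the same GC content. On the log2 scale this was -0.10, with an SD over 2825 blocks of 0.091, and 15.2% of the blocks were lower.

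The 17 blocks of chromosome 5 with GC content within 3 percentage points of the TERT locus held 163 to 362 positions with a median of 340, and 5 had fewer than TERT. Their median scores ranged from 14.8 to 23.4 with a median of 20.4, and 1 was lower than the 18.5 of TERT. Without midpoints in tandem repeats, in the locus and on the chromosome, the difference in mean score shrank from -0.10 to -0.04 on the log2 scale.

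**Figure D2:**
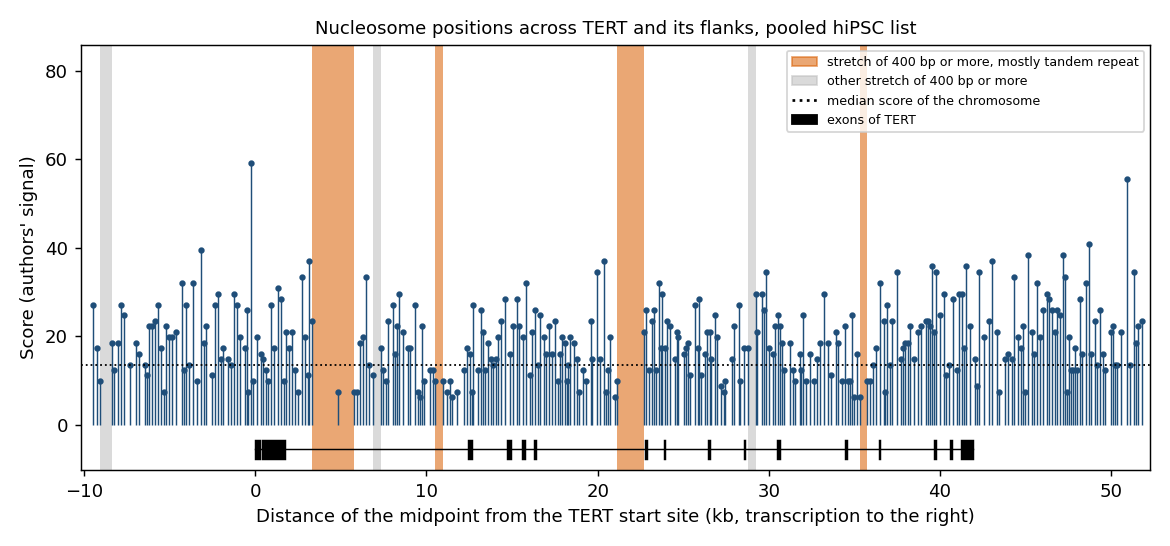
Each line is 1 of the 320 positions at TERT, by the distance of its midpoint from the start (x, kb) and its score (y, the authors' signal). Orange bands are stretches of at least 400 bp without a midpoint that are mostly tandem repeat, grey bands other such stretches, black boxes exons, and the dotted line the chromosome 5 median score. The score of 59.2 stands just left of 0, and the widest bands lie in introns 2 and 6.

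Exons of TERT held more positions per kb than its introns. The 16 exons had 24 midpoints in 4039 bp, or 5.94 per kb, with a median score of 20.4. The introns had 192 in 37863 bp, or 5.07 per kb, with a median score of 17.3. Windows of chromosome 5 with the mean GC content of the exons had 4.75 per kb and those with that of the introns 5.26 per kb. By this measure the exons were above and the introns just below their GC level. Matched in the same way, the whole locus was also below, at 5.17 against 5.26 per kb, while matching window by window gave 1.03 times the expectation. The small shortfall of the introns thus cannot be told from the way of matching. No base of an exon was in a tandem repeat, against 25.6% of the intron bases.

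The large exon 2, which encodes the N-terminal part of the enzyme, held 8 midpoints with scores from 9.87 to 30.8. Every exon from 3 to 11 held at least 1. Exons 7, 8 and 10, which are shorter than the interval, each lay wholly inside one, with scores of 25.9, 17.3 and 17.3. Exons 6 and 7 had the same score, 25.9, above 91.1% of chromosome 5. The highest scores in exons were 35.8 in the 3′ UTR in exon 16 and 34.5 in exon 14, above 98.7% and 98.3% of the chromosome. Exons 12, 13 and 15 held no midpoint, and the position nearest to exon 15 covered 14 of its 138 bases. The lowest of the exons with a single midpoint were exons 3 and 4, at 16.0 each.

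Introns differed widely in how much tandem repeat they held. Intron 2 is the longest, at 10688 bp, and 51.4% of it was tandem repeat. It had 44 midpoints, or 4.12 per kb, where windows of its GC content had 5.16. Intron 6 was 37.9% tandem repeat and had 4.72 per kb against 5.23. Intron 12 had the highest share, 61.3%, yet its 10 midpoints made 5.51 per kb, above the 4.96 of matched windows. Its median score, 9.87, was the lowest of all introns. The introns with no tandem repeat did not share a level, with median scores from 14.8 in intron 9, the same as in intron 2, to 28.4 in intron 15. Intron 9 was not free of repeated sequence. Of its bases, 31.8% lay in runs of 50 bases (50-mers) that also occur outside the locus, and in intron 15 none did.

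Tandem repeats of the TERT locus held fewer positions per kb, and lower scores, than its other bases. They held 33 midpoints in 10691 bp, or 3.09 per kb, with a median score of 12.3. All other bases held 5.60 per kb with a median score of 19.7. On chromosome 5 as a whole the same classes had 3.01 and 4.48 positions per kb and median scores of 12.3 and 13.6. In intron 2, the 15 positions lying mostly in tandem repeats had scores from 6.17 to 23.4 with a median of 9.87, and the other 29 had scores from 6.17 to 37.0 with a median of 18.5. In intron 12 both classes, of 5 positions each, had a median of 9.87, so its low scores were not confined to the repeat.

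Stretches without positions were counted where neighbouring midpoints were at least 400 bp apart. TERT had 8 among 319 distances, and 7.18% of the distances on chromosome 5 were that long. With the part inside the locus of a further stretch that crosses its 5′ edge, they covered 11.3% of the bases. At this GC content 13.1% would be expected, and the SD over blocks was 15.4 percentage points. Stretches of 10 kb or more were kept in that expectation and SD. Observed minus expected was nonetheless higher at TERT than in 64.2% of the blocks. Of the 319 distances, 4 were at least 600 bp and 2 at least 1000 bp, where chromosome 5 had 2.04% and 0.372%. The TERT locus was thus within the spread of the chromosome in how much of it lacked positions. Tandem repeats made up 72.6% of their bases, against 10.8% of the rest of the locus. The share was 48.3% in stretches of at least 300 bp, 80.2% at 600 bp and 92.4% at 1000 bp. On chromosome 5 the shares inside and outside stretches of at least 400 bp were 2.94% and 1.11%. Inside its stretches of at least 300, 600 and 1000 bp they were 2.51%, 3.70% and 4.90%. Of the 8 stretches, 5 were mostly tandem repeat, against 1.09% of the 58002 such stretches on chromosome 5. The list cannot tell absence of a nucleosome from reads that could not be placed in a repeat, and the part of either in these stretches was not tested.

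The repeats themselves are shown because they fill the longest stretches. Each line is a 30-base run of the reference on the strand of the gene, and capitals mark bases that were the same in every copy within the stretch, allowing up to 6 mismatches for a copy. Copy numbers are those of the reference and may differ in the line.

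TERT intron 6, 28 copies, chr5:1273735-1273764: ACTGTGGATGGCGGTcGTgGGGTCTGATGT
TERT intron 2 near exon 2, 35 copies, chr5:1291571-1291600: CCCcggGTGTCCCTgtCacGTgcAGgGTGA
TERT intron 2 near exon 3, 8 copies, chr5:1284339-1284368: AGCTGGAggTatGGaGTCcGGATGaTGCaG
TERT intron 12, 5 copies, chr5:1259566-1259595: tcCaCtCCCTCTcCTGTGGGCATCTGCgTC
TERC upstream, 31 copies, chr3:169771504-169771533: AtATaTaaAtATAAaTtTtTATataTttat

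The longest stretch at TERT was in intron 6. It ran for 1570 bp, from chr5:1272352 to chr5:1273922, between midpoints with scores of 21.0 and 9.87. Tandem repeats made up 85.1% of it, and copies of the printed run followed each other every 36 bp, with 26 of the 28 exact. None of its 50-mers occurred elsewhere in the genome outside the locus. The same was true of the 4 other stretches at TERT that were mostly tandem repeat.

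In intron 2 a single weak position parted a pair of long stretches. They ran for 930 and 1480 bp on either side of a midpoint at +4816 bp with a score of 7.40, next to the lowest score of the locus, 6.17. Both were wholly tandem repeat with copies every 42 bp, and the run printed above had 21 copies in the shorter and 35 in the longer stretch. The same run holds CACGTG. Together the pair of stretches held 43 such matches, or 17.9 per kb, against 0.0948 per kb on chromosome 5. The start window of TERT held 1.

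The other repeat stretches of TERT were shorter. One of 520 bp in intron 2, with copies every 60 bp, lay between midpoints that both scored 9.87. One of 420 bp in intron 12 lay between scores of 9.87 and 6.17. Positions did occur next to these inside the same repeats, such as those from +10996 to +11776 bp in intron 2, with scores of 6.17 to 9.87.

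The 3 remaining stretches at TERT held no tandem repeat. One of 420 bp in intron 10, at 61.1% GC, lay between scores of 29.6 and 17.3. Another, of 430 bp in intron 2 had 37.1% GC, and one of 690 bp in the 5′ flank had 32.2% GC. Both were poorer in GC than the locus as a whole, at 57.3%. Of the bases of the 690-bp stretch, 20.3% lay in 50-mers that also occur outside the locus, against none in the stretches of 420 and 430 bp.

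**Figure D3:**
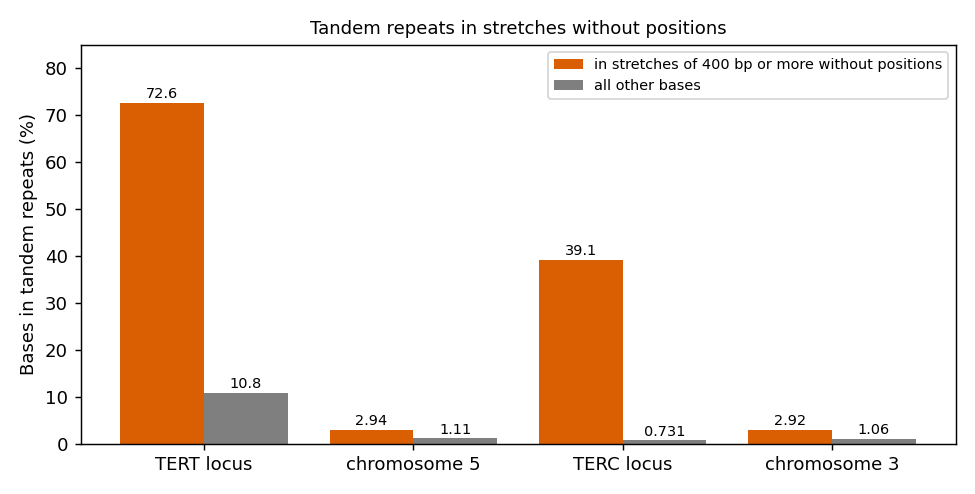
Bars give the percent of bases in tandem repeats (y) inside stretches of at least 400 bp without midpoints (orange) and in all other bases (grey), for each locus and its whole chromosome. The orange bar is 72.6% at TERT and 39.1% at TERC, and 2.94% and 2.92% on chromosomes 5 and 3.

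The TERC locus was close to chromosome 3 in position density, GC content and score, and richer in tandem repeat. Its 97 positions made 4.72 per kb, against 4.61 for the chromosome, and GC content was 41.2% against 39.7%. The median score was 14.8 (quartiles 9.87 and 19.7, range 6.17 to 38.2) against 13.6. Of the 97, 14 were at or above the 90th percentile of chromosome 3, where 12.0% of all positions were. Neighbouring intervals overlapped in 26 of 96 pairs, or 27.1%, and in 25.6% of the pairs on chromosome 3. GC matching gave an expected 95.6 positions, a ratio of 1.01, and 0.990 with stretches of 10 kb or more left out, with an SD of 0.14 on the log2 scale over 9399 blocks. The mean score, 16.0, was 0.967 times the expected 16.6, or -0.05 on the log2 scale with an SD over blocks of 0.11, and 34.9% of the blocks were lower.

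TERC had 5 stretches of at least 400 bp among 96 distances, and 6.64% of the distances on chromosome 3 were that long. One of them was over 1000 bp, where the chromosome had 1.77% of at least 600 bp and 0.272% of at least 1000 bp. The longest, 1560 bp, ran from -6572 to -5012 bp in the 5′ flank, inside the long non-coding RNA gene ENSG00000269889. Its GC content was 7.95% and 81.6% of it was tandem repeat, the AT run printed above. The midpoints at its ends had scores of 12.3 and 7.40. Few windows of the chromosome match so low a GC content, as few as 2 for a window of this locus. No midpoint of the locus lay in any of its 1472 bp of tandem repeat.

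The other 4 stretches of TERC were 420 to 530 bp long and were not mostly repeat. One is that upstream of the start described above. One of 450 bp began 1248 bp downstream of the start, between midpoints that both scored 14.8. One of 530 bp in the 3′ flank had 28.4% GC, and one of 490 bp lay at the far end of the 5′ flank, in MYNN. Over all 5 stretches, 39.1% of the bases were tandem repeat, against 0.731% elsewhere in the locus. The share was 24.7% in stretches of at least 300 bp and 81.6% at 600 bp, where the AT-rich stretch alone remained. All of this excess rests on the AT-rich stretch and on 14.2% of the 530-bp one.

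**Figure D4:**
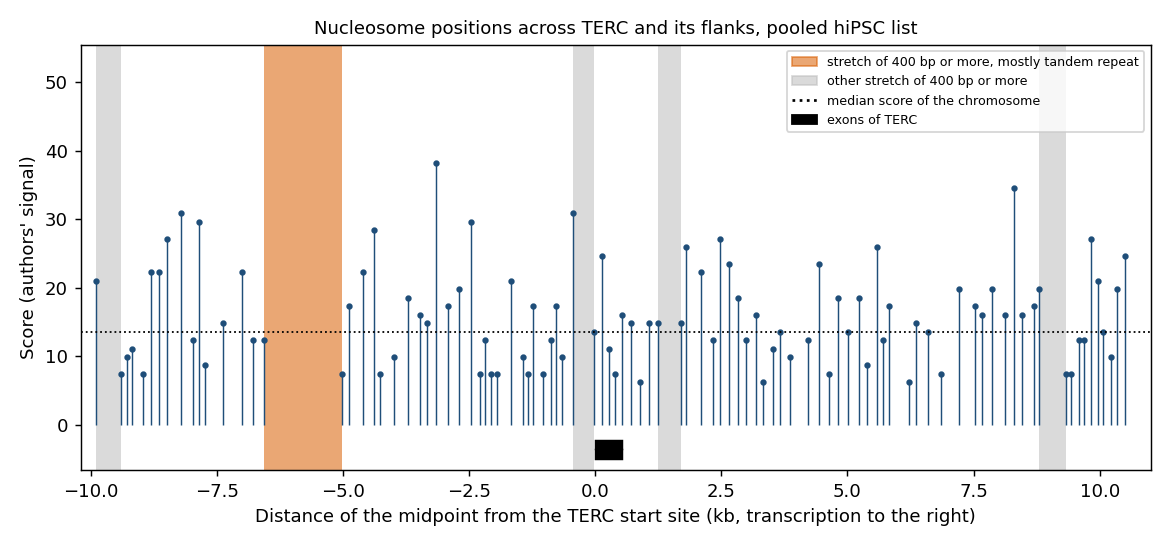
Each line is 1 of the 97 positions at TERC, by the distance of its midpoint from the start (x, kb) and its score (y, the authors' signal), with bands, box and dotted line as for TERT. The black box is the single exon, the grey band at its left edge is the 420 bp without a midpoint, and the orange band is the AT-rich repeat of 1560 bp.

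Genes in the flanks had their own positions. At TERT, 22 positions lay in the long non-coding RNA gene ENSG00000287486, which overlaps the 3′ end of TERT, with a median score of 23.4. Another 16 lay in SLC6A18, which encodes a member of the SLC6 transporter family, with a median of 21.0. One of these had the next highest score of the locus, 55.5, at 69.4% GC and 50916 bp from the TERT start. At TERC, 14 lay in ACTRT3, an actin-related gene, including the highest of the locus, 38.2, at -3162 bp. MYNN, a zinc finger gene, held 8 and ENSG00000269889 held 5. The ACTRT3 start had midpoints 210 bp apart with scores of 22.2 upstream and 28.4 downstream, and the MYNN start 265 bp apart with 30.8 and 27.1. Both neighbouring starts were thus flanked by higher scores than the TERC start, at 13.6 and 24.7.

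The start sites of 22 other telomere maintenance genes gave a setting for both. Their midpoints were 110 to 490 bp apart across the start, with a median of 277.5 bp. TERT at 220 bp and TERC at 150 bp were both below that median. These genes were not matched in GC content, which was 42.4% to 65.95% around their starts. It was 53.4% at TERC and 73.4% at TERT, above all of them, and the GC-matched genes of chromosome 5 had a median of 210 bp. The 9 genes of the telomerase holoenzyme and its assembly had a median of 180 bp and included the shortest, SHQ1, at 110 bp. The 6 shelterin genes, which coat the telomere, ran from 270 to 400 bp with a median of 340 bp. The other 7, which are the CST complex, the helicase gene RTEL1 and RNA processing factors, had a median of 300 bp and included the longest, STN1, at 490 bp.

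The first downstream position of these genes was above a median of 85.5% of the scores on its chromosome, against 74.8% at TERT and 88.0% at TERC. It was lowest at GAR1, at 1.09%, and highest at PARN, a nuclease that trims the TERC RNA, at 99.97%. In the 200 bp upstream of the start, TERT and TERC each had 1 midpoint, and most of the 22 also had at least 1. The other 7 had none, and the share over all gene starts was not counted. The list was not chosen by promoter type and no difference between its groups was tested.

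The profiles most like those of both genes were sought among protein-coding genes of the same chromosome and matched GC content, by Pearson's r of the smoothed score profile over 1000 bp on each side of the start. For TERT, of 23 genes, NKD2 was nearest at 0.54, followed by AHRR at 0.41 and MAPK9 at 0.33. The NKD2 start had an upstream score of 48.1 and a distance across of 310 bp. For TERC, of 288 genes, IFT122 was nearest at 0.54, and SENP2 was at 0.50. The first upstream position scored 9.87 at IFT122, 7.40 at SENP2 and 13.6 at TERC. Each r is a description over bins of 1 list and says nothing of shared control.

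**Figure D5:**
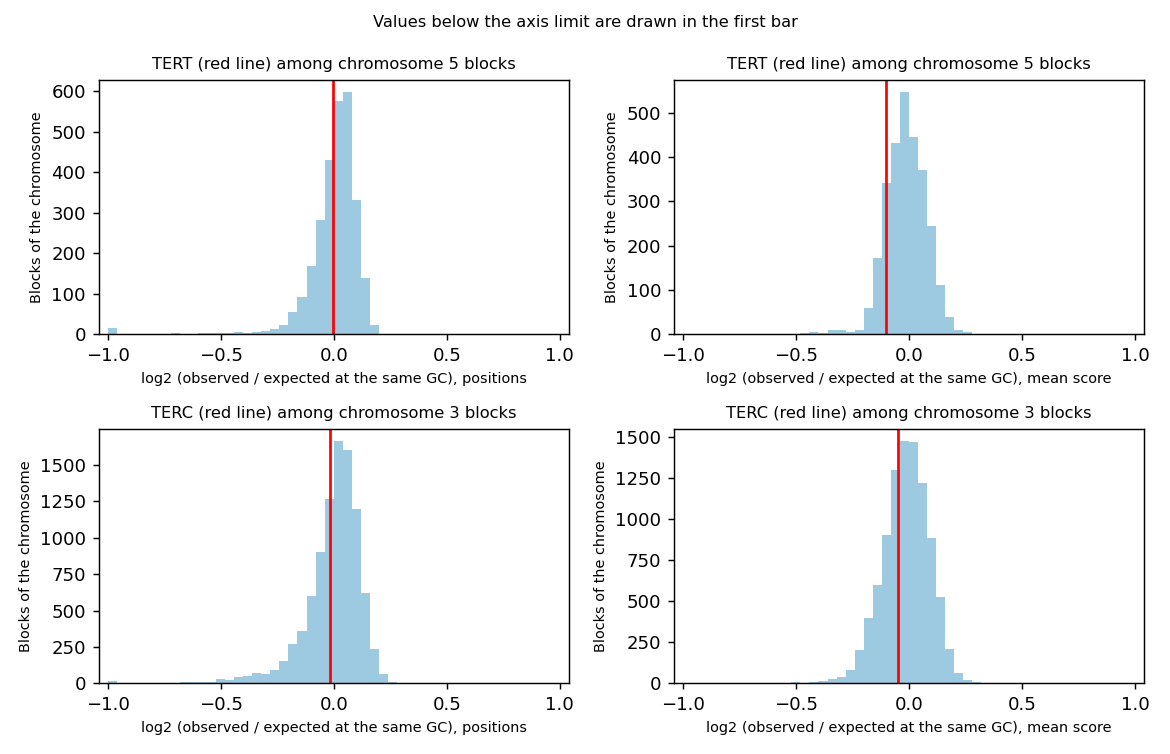
Histograms of the log2 ratio of observed to GC-expected positions (left) and mean score (right) over consecutive blocks of the locus length, with the number of blocks on the y axis, for TERT (top) and TERC (bottom). The red line is the locus. Stretches of 10 kb or more lacking positions are left out of the position panels, and the TERT score at -0.10 stands left of most blocks.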

How the data were processed

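Reads were trimmed by the authors with Trimmomatic 0.40 and taken through the nucMACC pipeline on GRCh38, with a list of problem regions excluded. The deposited values used here are 1 pooled list whose score is a signal, never negative, with no stated scaling. The runs pooled and the program that called positions are not given in the sources used here, although the study's methods say the 50-bp runs were not pursued. Of all scores, 99.999845% were whole multiples of 1.23 within 0.01 of a step, and 310 of the 320 TERT midpoints lay on a 10-bp grid.

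Gene models were from GENCODE release 44 (the study used 48) and sequence from hg38. The reference does not mark repeats, so tandem repeats were found with periods of 1 to 150 bp, at least 25 bp and 85% identity. Expected positions came from 1-kb windows, and expected scores from positions with the same GC content over 147 bp. GC values with no window took the nearest, and the spread is the SD over consecutive blocks. For the bases in stretches without positions, stretches of 10 kb or more were kept. For positions, blocks and windows within stretches of 10 kb or more lacking positions were left out of that SD, and for the distance across a start, genes at 10 kb or more were left out. These exclusions were made after the data were seen. Named genes were TERT and TERC, genes in their flanks, the extremes of the telomere list and the 3 most alike profiles, of which 1 is not reported here. TERC is not in the promoter table used. The members and lists were chosen with earlier results of these data known. The density and repeat code was tested on simulated data. The scripts ran under Python 3.11.15 with numba 0.67.0, NumPy 2.4.6, pandas 2.3.3, SciPy 1.17.1 and matplotlib 3.10.9. Alternatives tried were other GC tolerances, references, thresholds and minimum scores.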

Additional observations from a re-analysis of the deposited data

How the results depend on the processing

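With 1 pooled list, no replicate could be left out, and depth sets no limit that can be given. No paired analysis was possible because samples were merged before deposit. Of 36 alternatives to 10 results, 25 moved a value by less than its spread and 5 by more, and the other 6 moved a count of stretches, which has no spread, by over 1.5 times. With a minimum distance of 300 bp, TERT had 25 stretches without positions and TERC 11, and tandem repeats made up 48.3% and 24.7% of their bases. At 600 bp the counts were 4 and 1, and those shares 80.2% and 81.6%. With positions of at least the median score alone, they were 31 and 15, since fewer positions were counted, and the distance across the start was 570 bp at TERC and 340 bp at TERT, the latter within 1 SD over genes. Measured as 50-mers that occur more than once in the genome, repeats made up 63.3% of the stretch bases at TERT and 33.6% at TERC. The ratios of positions to the GC expectation lay on both sides of 0 on the log2 scale, from -0.02 to 0.05 at TERT and from -0.03 to 0.08 at TERC, all within 1 SD over blocks. All score ratios were below 0, but the mean over blocks was also below 0, at -0.014 on both chromosomes. The alternatives share 1 list, so a common sign is not separate evidence. Tandem repeats were the measure reported, so they gave no separate value. Leaving out stretches of 10 kb or more, and leaving out midpoints in repeats, were chosen after seeing the data.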
